A study of Homo sapiens with 12 samples.

Results

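Resveratrol (RSV), a plant stilbene, was added to 501Mel melanoma cells whose BRAF kinase was inhibited with vemurafenib (Vem), and the RNA was compared with that of cells given Vem alone. The comparison uses 4 of the 12 libraries of the series, chosen by their labels: RSV+Vem replicates 1 and 2 against Vem replicates 1 and 2. 501Mel is an established human melanoma line that carries an activating BRAF mutation, so each group is a single line and no group speaks for other melanomas. RSV+Vem cells received 5 μM RSV and 1 μM Vem, and Vem cells received 1 μM Vem. The other libraries, 2 per group, came from cells given DMSO as vehicle, 5 μM RSV alone, the dioxin TCDD, or RSV with TCDD. All exposures lasted 48 h. For TCDD the treatment protocol states 10 nM in both groups that received it, but the source name of RSV+TCDD states 1 nM, and which was used could not be settled. The labels do not say whether replicates were separate cultures, so p-values measure the spread between these libraries.

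Vem occupies the ATP pocket of mutant BRAF and thereby lowers signalling through MEK to the kinase ERK. ERK drives transcription of its own inhibitors, such as the DUSP phosphatases and the Sprouty proteins, and of regulators that carry cells into the cell cycle. MITF is the transcription factor that maintains melanocyte identity and the genes for melanin synthesis, and pigment genes often rise in melanoma cells when BRAF is inhibited. AhR, the aryl hydrocarbon receptor, is a transcription factor switched on by ligands that pairs with ARNT at the XRE sequence of genes such as CYP1A1. TCDD is its classic agonist, and RSV is known as an AhR antagonist, among other actions.

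Counts on genes were 17631920 and 8378655 in the RSV+Vem libraries, the latter the lowest of the series, and 15944197 and 14632070 in the Vem libraries. RNA integrity numbers were 8.7 and 8.6 with RSV+Vem and 9.2 and 9.7 with Vem, so they moved with the comparison, and their part in the results was not tested beyond a split by transcript length. Log2 fold changes were only weakly related to exonic length (Spearman rho -0.0519 across 13218 genes with a length), and the medians were 0.03, 0.05 and -0.03 when these genes were divided into 3 equal groups from the shortest to the longest. The melanocyte marker MITF was abundant in all 4 libraries, at 733 to 1260 CPM (gene counts relative to library size after TMM scaling). S100B, another such marker, was less abundant, at 8.30 to 24.6 CPM. Among defining genes of other skin and blood cells, the leukocyte gene PTPRC had 9 counts, the keratinocyte gene KRT14 2 and the endothelial gene PECAM1 0. These counts are over all 12 libraries. The list was not near 0 throughout, since 4 of its 15 genes had enough counts to be tested. Their summed level was 29.4 and 27.1 CPM with RSV+Vem against 30.6 and 33.5 CPM with Vem. In bulk RNA, fewer cells of a kind and less RNA per cell cannot be told apart.

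RSV changed transcript levels widely in BRAF-inhibited cells, and the call was made for 37.9% of the genes tested. Of 16080 genes, 3079 (19.1%) were higher and 3009 (18.7%) lower in RSV+Vem than in Vem at an adjusted p below 0.05, and the median log2 fold change of all genes was 0.03. Of the called genes, 72.4% had a fitted change of less than 2-fold, and a test against a log2 fold change of 1 called 316 genes higher and 56 lower. When libraries were scaled to their ERCC spike-ins, 334 genes were called higher and 55 lower. The spike-ins held 0.0389% and 0.0903% of the counts in RSV+Vem replicates 1 and 2 and 0.0442% and 0.0447% in the Vem libraries.

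Among called genes with at least 50 counts on average in the higher group, the 12 largest increases fell into several kinds. FUT3, a fucosyltransferase that makes Lewis blood group antigens, stood at 24.1 and 24.6 CPM with RSV+Vem and at 0.904 and 0.384 with Vem (log2 fold change 5.20, SE 0.30, edgeR adjusted p = 3.89e-09). Its level with RSV alone was 23.2 and 17.9 CPM against 1.37 and 0.971 with vehicle, so the groups with RSV lay close together whether or not Vem was present. SLAMF7, a receptor of lymphocytes, rose by 4.43 (SE 0.47, edgeR adjusted p = 9.25e-07), from 0.417 and 0 CPM to 5.37 and 4.05. The SLAMF7 Vem libraries had 6 and 0 counts. GPR116, an adhesion G protein-coupled receptor, rose by 4.34, the retinoid-binding protein gene RLBP1 by 3.92 and the immune-region transcript HCP5 by 3.70. The feedback inhibitors of ERK signalling SPRY4 and DUSP6 were also among the 12, as were PPP1R14C (3.53), an inhibitor of protein phosphatase 1, VASN (3.37), which encodes a membrane protein that binds TGF-beta, SHISA2 (3.36) and the transcript RP11-284F21.10 (3.74).

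The 12 largest decreases were smaller in size. SERPINB9, an inhibitor of granzyme B, fell from 5.91 and 5.61 CPM with Vem to 0.851 and 0.675 with RSV+Vem (log2 fold change -2.86, SE 0.41, edgeR adjusted p = 2.78e-05). MYH7B, a myosin heavy chain, stood at 31.5 and 23.4 CPM with Vem and at 5.64 and 4.95 with RSV+Vem. EMP1, an epithelial membrane protein, was the most abundant of these genes and fell from 657 and 692 CPM to 191 and 200 CPM (log2 fold change -1.79, SE 0.13, edgeR adjusted p = 7.50e-08). CADPS and CPLX1, which act in exocytosis of secretory vesicles, fell by 2.14 and 2.08 on the log2 scale. HPDL (-1.78), a mitochondrial dioxygenase-like protein, the solute carriers SLC5A10 (-1.96) and SLC26A1 (-1.91), KRBA2 (-2.07) and the transcripts TFAP2A-AS1 (-2.11), RP11-80F22.9 (-2.03) and LINC00462 (-1.88) made up the rest. The groups did not overlap for any of the 24 genes, which the rule required. Each stayed called, in the same direction, under the 12 alternatives run for it. Leaving out 1 Vem library moved several of the increases by over 1.5 times: without Vem replicate 1 and without Vem replicate 2, in that order, the log2 fold change was 5.96 and 4.74 for FUT3, 9.44 and 3.52 for SLAMF7, and 3.26 and 4.96 for RLBP1. The value of 9.44 sets RSV+Vem against a single Vem library with 0 counts and is no measure of size.

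**Figure D1:**
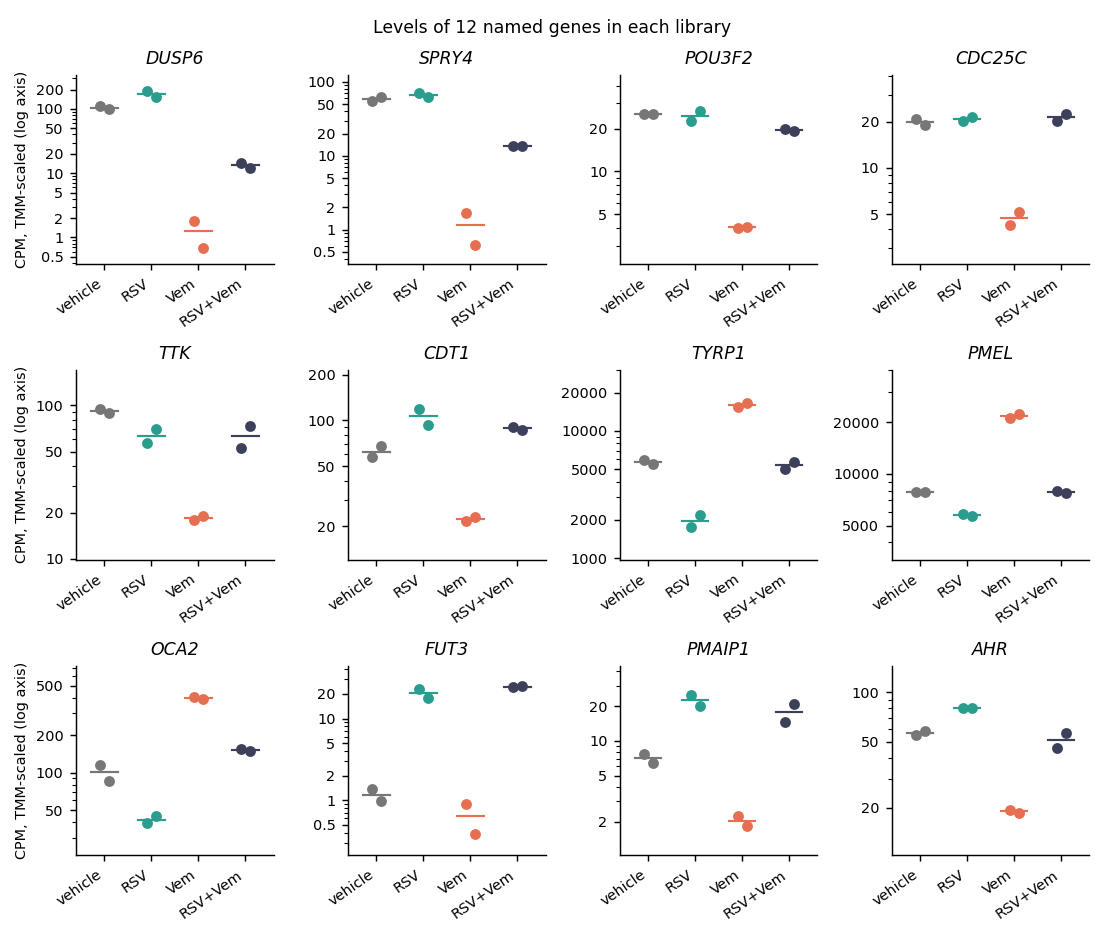
Level of 12 named genes in each library of 4 groups, in CPM on a log axis; each point is a library and each bar the mean of 2. DUSP6, SPRY4, POU3F2, CDC25C, TTK, CDT1, PMAIP1 and AHR sit higher with RSV+Vem than with Vem, TYRP1, PMEL and OCA2 sit lower, and FUT3 is between 17.9 and 24.6 CPM in the 4 libraries with RSV.

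Feedback genes of the ERK pathway were higher when RSV was added to Vem, yet remained below their level with vehicle. Of 20 tested genes of an ERK output list, 11 were called higher (55%, beside 19.1% of all genes) and 0 lower. The median log2 fold change was 1.05, with values from -0.15 to 3.55. Relative to vehicle the list median was -3.23 with Vem and -2.12 with RSV+Vem, 2 values that share the vehicle libraries. DUSP6, the phosphatase that inactivates ERK, stood at 1.81 and 0.692 CPM with Vem and at 14.5 and 11.9 CPM with RSV+Vem (log2 fold change 3.39, SE 0.27, edgeR adjusted p = 1.12e-07). Its vehicle level was 111 and 98.5 CPM, so the libraries with RSV+Vem lay between those with Vem and those with vehicle. SPRY4, a Sprouty inhibitor of receptor signalling, went from 1.67 and 0.615 CPM to 13.8 and 13.7 CPM (log2 fold change 3.55, SE 0.25, edgeR adjusted p = 1.43e-08), against 55.6 and 62.8 CPM with vehicle. Without Vem replicate 1 the change was 4.26 for DUSP6 and 4.47 for SPRY4, and without Vem replicate 2 it was 2.89 and 3.04. SPRY2, EPHA2 and ETV5 were also called higher, by 2.17, 2.15 and 1.43, and the ERK phosphatase gene DUSP4 by 1.17. MYC (0.15), CCND1 (-0.15) and EGR1 (0.01) were not called.

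RSV on its own did not move this list in one direction. Relative to vehicle, RSV alone raised 6 of the 20 and lowered 4, where 20.5% of all tested genes were higher and 20.2% lower, and the list median was -0.04. Whether RSV acted differently with and without Vem was tested as an interaction of the treatments, which called 11.8% of all genes higher and 10.9% lower. The interaction was called higher for 12 of the 20 genes and lower for 0, with a median of 0.92. With spike-in scaling 2 of the 20 were called for the interaction and 5 for RSV+Vem against Vem, all higher. Of all 16080 genes that scaling called 8 higher for the interaction and 334 higher for RSV+Vem against Vem. For SPRY4 the interaction under TMM scaling was 3.39 (SE 0.29, edgeR adjusted p = 7.18e-07), and RSV alone changed SPRY4 by 0.16 (edgeR adjusted p = 0.365). MYC, a driver of growth and proliferation, had an interaction of 2.27 that came from the comparison without Vem, since RSV alone lowered it by a log2 fold change of -2.12.

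Genes of DNA replication and mitosis were higher in RSV+Vem than in Vem almost without exception. Of 26 mitosis genes tested, 24 were called higher and 0 lower, with a median log2 fold change of 1.08, beside 19.1% of all genes called higher. The summed level of the list was 1251 and 1273 CPM with Vem and 2261 and 2654 CPM with RSV+Vem, against 4281 and 4612 CPM with vehicle. CDC25C, the phosphatase that activates CDK1 at the entry into mitosis, rose from 4.24 and 5.15 CPM to 20.1 and 22.6 CPM (log2 fold change 2.18, SE 0.16, edgeR adjusted p = 1.90e-08), close to the 21.0 and 19.2 CPM of the vehicle libraries. TTK, a kinase of the spindle checkpoint, rose from 17.8 and 19.1 CPM to 52.99 and 73.66 CPM (log2 fold change 1.76, SE 0.17, edgeR adjusted p = 9.50e-07). All RSV+Vem libraries lay above all Vem libraries for TTK, but 70.6% of all tested genes likewise had no overlap between these groups. KIF11, the motor that separates spindle poles, rose by 1.44, CDK1 by 1.43, TOP2A by 1.27 and the proliferation marker MKI67 by 0.58. AURKA (0.07) and PLK1 (-0.06), kinases of mitotic entry and spindle assembly, were the 2 members not called.

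The DNA replication list moved alike, with 27 of 30 tested genes called higher, 1 lower and a median of 0.875. CDT1, which licenses replication origins, rose from 21.8 and 23.1 CPM to 90.9 and 87.0 CPM (log2 fold change 1.99, SE 0.13, edgeR adjusted p = 7.94e-09). Thymidine kinase TK1 rose from 29.1 and 36.1 CPM to 121 and 118 CPM (log2 fold change 1.88, SE 0.12, edgeR adjusted p = 6.01e-09). Both ended above their vehicle level, which was 56.9 and 67.5 CPM for CDT1 and 77.6 and 89.1 CPM for TK1. UNG, a uracil glycosylase of DNA repair, was the 1 member called lower, by a log2 fold change of -0.82, and under spike-in scaling it was not called (edgeR adjusted p = 0.428). Among 19 tested regulators of the G1 phase, 10 were called higher (52.6%) and 3 lower (15.8%), beside 19.1% and 18.7% of all genes. E2F2 rose by 1.54 and CCNE2, a cyclin of S phase entry, by 1.75, while CCND1 (-0.15) was not called. CDKN1A, a CDK inhibitor singled out after its values were seen, had 22 and 9 counts with RSV+Vem and 0 and 0 with Vem, at least 10.2-fold higher with 3 counts over the Vem group as the floor.

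For 17 of the 26 mitosis genes RSV was called higher with Vem and lower without it, beside 211 of all 16080 genes. RSV alone, relative to vehicle, lowered 19 of the 26 mitosis genes and raised 0, beside 20.2% and 20.5% of all genes. The list median was -0.49, and TTK fell by 0.53 on the log2 scale (edgeR adjusted p = 0.0113). With TCDD, where 18.6% of all genes were higher and 19.1% lower in RSV+TCDD than in TCDD, 21 of the 26 were lower and 0 higher, with a median of -0.68. The interaction of RSV with Vem was called higher for all 26 mitosis genes tested, beside 11.8% of all genes. It ran from 0.84 for MKI67 to 2.29 for TTK, with a median of 1.63. CDC25C did not pass the test with RSV alone (0.06, edgeR adjusted p = 0.762). Set against the effect of RSV in TCDD-treated cells, a contrast that called 10.5% of all genes higher and 9.92% lower, the effect in Vem-treated cells was again higher for 26 of 26, with a median of 1.87. Without Vem, RSV left the DNA replication list near balance (median 0.07, 6 members up and 7 down, beside 20.5% and 20.2% of all genes). The interaction was called higher for 28 of 30, beside 11.8% of all genes. Split at the median exonic length, the medians were 1.12 in shorter and 1.04 in longer mitosis genes, and 0.875 and 0.84 for replication. With spike-in scaling 2 of the 26 mitosis genes and 3 of the 30 replication genes were called higher in RSV+Vem than in Vem (medians 1.01 and 0.83), beside 334 of all 16080 genes. For the interaction with Vem, edgeR then called 0 of either list (medians 1.70 and 1.02), but only 8 of all genes. For Vem against TCDD it called 22 of the 26 mitosis genes and 0 of the 30 replication genes higher (medians 2.5 and 1.54). In that contrast 211 of all genes were called higher, and the median of all genes was 0.68.

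**Figure D2:**
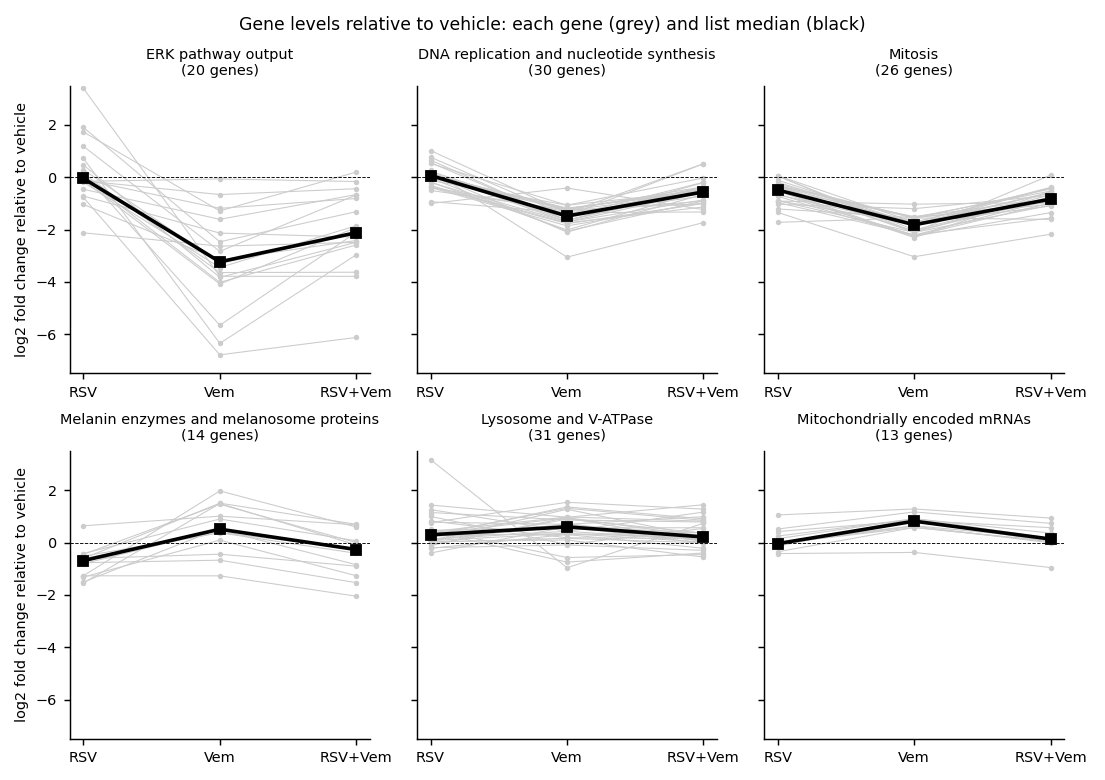
Log2 fold change relative to vehicle with RSV, Vem and RSV+Vem, for each tested gene of 6 lists (grey) and the list median (black); the 3 positions share the vehicle libraries, and 1 ERK output gene with RSV is drawn at the edge of its panel. The medians of the ERK output, replication and mitosis lists are lowest with Vem (-3.23, -1.48 and -1.82) and less so with RSV+Vem (-2.12, -0.56 and -0.83), and those of the melanin and mitochondrially encoded lists are highest with Vem (0.51 and 0.82).

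The start sites of the mitosis genes were inspected because the genes moved together. RefSeq promoters (GRCh38.p14, 250 bases before to 50 after the start) were held for 21 of the 26 genes. The CHR element TTTGAA, a sequence known from promoters of genes expressed in G2 and mitosis, occurred on either strand in 14 of the 21 (66.7%), in 9.84% of the 10188 promoters of tested genes, in 13.4% of those called higher and in 7.70% of those called lower. It occurred in 1 of 26 promoters (3.85%) of the replication list. The promoters of the 3 mitosis genes with the largest increase that the table holds are printed with this element in capitals. The CDC25C window does not contain these letters. Each window covers a single annotated start of its gene, and other starts were not inspected.
CDC25C, chr5:138338306-138338605, minus strand: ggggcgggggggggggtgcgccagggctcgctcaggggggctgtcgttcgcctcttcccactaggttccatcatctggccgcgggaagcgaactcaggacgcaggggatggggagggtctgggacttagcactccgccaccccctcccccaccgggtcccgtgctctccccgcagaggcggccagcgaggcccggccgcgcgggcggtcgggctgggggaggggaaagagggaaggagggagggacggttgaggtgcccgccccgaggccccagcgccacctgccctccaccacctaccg
KIF11, chr10:92592880-92593179, plus strand: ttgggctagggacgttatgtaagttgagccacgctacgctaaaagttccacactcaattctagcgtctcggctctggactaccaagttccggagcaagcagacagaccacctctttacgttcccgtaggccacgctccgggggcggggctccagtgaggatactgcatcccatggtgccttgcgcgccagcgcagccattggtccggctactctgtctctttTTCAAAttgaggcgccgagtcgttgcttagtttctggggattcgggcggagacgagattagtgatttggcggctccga
CDK1, chr10:60778081-60778380, plus strand: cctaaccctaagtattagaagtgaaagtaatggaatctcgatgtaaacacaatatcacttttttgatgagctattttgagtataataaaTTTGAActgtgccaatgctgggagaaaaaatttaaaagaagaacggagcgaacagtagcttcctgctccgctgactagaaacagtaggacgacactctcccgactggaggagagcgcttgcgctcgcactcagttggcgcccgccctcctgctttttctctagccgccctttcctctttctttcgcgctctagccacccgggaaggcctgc

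Pigment genes were lower in RSV+Vem than in Vem throughout the melanin list. All 14 tested enzymes and melanosome proteins were called lower, beside 18.7% of all genes, with log2 fold changes from -1.59 to -0.33. TYRP1, an enzyme of eumelanin synthesis, was at 15550 and 16730 CPM with Vem and at 5023 and 5731 CPM with RSV+Vem (log2 fold change -1.59, SE 0.11, edgeR adjusted p = 2.59e-08). PMEL, the amyloid scaffold of the melanosome, went from 21050 and 22340 CPM to 7991 and 7711 CPM (log2 fold change -1.47, SE 0.07, edgeR adjusted p = 1.96e-09). In each of these genes the RSV+Vem libraries came to lie near the vehicle libraries, which had 5948 and 5511 CPM of TYRP1 and 7860 and 7862 CPM of PMEL. The ion transporters SLC24A5 (-1.36), SLC45A2 (-1.33) and OCA2 (-1.38) fell by similar amounts, and tyrosinase (TYR) by a log2 fold change of -0.62. With spike-in scaling 4 of the 14 were called lower, beside 55 of all 16080 genes, with a list median of -0.89. The smallest decrease was in GPNMB (-0.33), a melanosomal glycoprotein that RSV alone raised by 0.64.

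Machinery that moves melanosomes was also lower. Of 15 tested transport and sorting genes, 10 were called lower (66.7%, beside 18.7% of all genes) and 1 higher (6.67%, beside 19.1%). The list median was -0.405. MYO5A and RAB27A, the motor and the GTPase that hold melanosomes at the cell periphery, fell by 1.29 and 1.01, and MLPH, the adaptor that joins them, by 0.99. BLOC1S3, a subunit of a sorting complex, was the 1 member called higher, at 0.61. Under spike-in scaling MYO5A was at -1.35 and not called (edgeR adjusted p = 0.0565), and neither were RAB27A (adjusted p = 0.169) and BLOC1S3 (adjusted p = 0.778). Of 10 lineage regulators, 5 were called lower (50%) and 1 (10%), LEF1, higher (0.40). SOX10 fell by 0.70, TFAP2A by 0.93 and the endothelin receptor EDNRB by 0.74. MITF itself was at 1216 and 1260 CPM with Vem and at 733 and 851 CPM with RSV+Vem (log2 fold change -0.65, SE 0.15, edgeR adjusted p = 0.00539), and without RSV+Vem replicate 1 it was -0.54 with an adjusted p of 0.0529. PAX3 (-0.03) and KIT (0.08) were not called. LEF1 was not called without Vem replicate 2 (0.32, adjusted p = 0.0753). Of 8 melanocyte identity markers 7 (87.5%) were called lower, and S100B, a calcium-binding marker of melanoma cells, was higher (1.36). MITF, TFAP2A, EDNRB, LEF1, S100B and TYR were not called under spike-in scaling (adjusted p from 0.0924 to 0.865).

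Pigment genes were lower with RSV both with and without Vem, in 13 of the 14 members. RSV alone lowered 13 of the 14 melanin genes, beside 20.2% of all genes, with a median of -0.69 against -0.835 with Vem. The interaction was called for 5, with 4 lower (28.6%, beside 10.9% of all genes) and 1 higher (7.14%, beside 11.8%). For TYRP1 it was -0.04 (SE 0.16, edgeR adjusted p = 0.889), which does not show that the effects were equal. PMEL was the clearest exception, since RSV alone changed it by -0.45 and the interaction was -1.02 (SE 0.10, edgeR adjusted p = 3.22e-06). GPNMB, SLC45A2 and GPR143 had interactions of -0.97, -0.52 and -0.41, and TRPM1 one of 0.67. None of these interactions was called with spike-in scaling, under which edgeR called 0 genes lower for this contrast.

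The promoters of the 3 melanin genes that fell most among those the table holds are printed because MITF binds the letters CATGTG, the core of the M-box, and CACGTG, both marked in capitals. CATGTG occurred on either strand in 8 of 12 promoters of the melanin list (66.7%), in 6.86% of the promoters of tested genes and in 8.58% of those of genes called lower. CACGTG occurred in 1 of the 12 (8.33%) and in 9.95% of the promoters of tested genes.
TYRP1, chr9:12693135-12693434, plus strand: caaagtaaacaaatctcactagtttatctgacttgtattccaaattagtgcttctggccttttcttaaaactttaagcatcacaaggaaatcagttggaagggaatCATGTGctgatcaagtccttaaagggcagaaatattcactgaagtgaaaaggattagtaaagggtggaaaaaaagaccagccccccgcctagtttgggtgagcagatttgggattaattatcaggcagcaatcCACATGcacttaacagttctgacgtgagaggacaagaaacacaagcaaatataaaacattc
OCA2, chr15:28099266-28099565, minus strand: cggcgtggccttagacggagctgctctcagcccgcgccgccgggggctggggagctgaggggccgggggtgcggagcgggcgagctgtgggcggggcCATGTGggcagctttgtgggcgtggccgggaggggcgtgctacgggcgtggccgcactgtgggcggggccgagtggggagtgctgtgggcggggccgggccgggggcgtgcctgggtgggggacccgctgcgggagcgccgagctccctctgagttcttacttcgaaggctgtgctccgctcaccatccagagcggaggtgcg
SLC24A5, chr15:48120740-48121039, plus strand: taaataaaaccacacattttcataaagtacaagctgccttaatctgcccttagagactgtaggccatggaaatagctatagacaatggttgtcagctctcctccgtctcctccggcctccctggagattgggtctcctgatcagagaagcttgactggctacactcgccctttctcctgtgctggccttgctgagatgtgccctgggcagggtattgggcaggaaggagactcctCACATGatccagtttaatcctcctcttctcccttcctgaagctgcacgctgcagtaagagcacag

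Genes of the AhR pathway did not move as a group, and the receptor itself rose. AHR was at 19.5 and 18.6 CPM with Vem and at 46.0 and 56.3 CPM with RSV+Vem (log2 fold change 1.42, SE 0.12, edgeR adjusted p = 8.11e-08), near its vehicle level of 55.0 and 58.3 CPM. Under spike-in scaling it was at 1.33 and not called (adjusted p = 0.0814). CYP1A1, the monooxygenase that serves as the standard AhR readout, rose from 13.6 and 12.4 CPM to 22.2 and 28.1 CPM (log2 fold change 0.94, SE 0.14, edgeR adjusted p = 3.29e-05). Its vehicle level was 23.5 and 23.1 CPM, and Vem alone had lowered it by 0.84 on the log2 scale. Relative to vehicle, RSV+Vem was at 0.09 for CYP1A1 (edgeR adjusted p = 0.567) and at 0.35 for TIPARP (edgeR adjusted p = 0.0194). TIPARP, a mono-ADP-ribosyltransferase induced by AhR, rose by 0.94 (SE 0.12, edgeR adjusted p = 8.20e-06). Neither was called under spike-in scaling (adjusted p = 0.435 and 0.379). The AhR repressor AHRR went the other way, from 72.7 and 62.9 CPM to 43.7 and 35.1 CPM (log2 fold change -0.77, SE 0.14, edgeR adjusted p = 0.000277), and was not called under spike-in scaling either (adjusted p = 0.515). ARNT (-0.13) and CYP1B1 (0.69, SE 0.67) were not called, and CYP1B1 stayed below 1 CPM in all libraries. Of 15 tested genes on the list, 5 were called higher and 2 lower, 33.3% and 13.3% beside 19.1% and 18.7% of all genes, with a median of 0.36, which was -0.06 in the 8 longer genes. PMAIP1, a cell death gene described with the stress genes, was also on this list.

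The response of CYP1A1 to RSV differed between backgrounds. Relative to its own control, RSV raised CYP1A1 by 1.55 without Vem (SE 0.12, edgeR adjusted p = 4.36e-08) and by 0.94 with Vem, and the interaction was -0.61 (SE 0.18, edgeR adjusted p = 0.0207). In TCDD-treated cells it was lower with RSV, at 41.8 and 42.2 CPM against 156 and 131 CPM. The effect of RSV with Vem exceeded that with TCDD by 2.71 (SE 0.18, edgeR adjusted p = 5.81e-08). By source name the RSV+TCDD cells had 1 nM TCDD and the TCDD cells 10 nM. If that holds, RSV and TCDD dose cannot be told apart here. With spike-in scaling the interaction of CYP1A1 with Vem was -0.54 and not called (adjusted p = 1), and its difference from TCDD was 3.31 (adjusted p = 0.000284). AHR had an interaction of 0.91 (SE 0.16, edgeR adjusted p = 0.000584) and AHRR one of -0.85, neither called with spike-in scaling. The XRE core GCGTG, in capitals, occurred on either strand in 7 of 12 promoters of the AhR list (58.3%) and in 50.5% of the promoters of tested genes. The FUT3 promoter is shown for one of the largest increases, and these letters are not in its window.
CYP1A1, chr15:74725479-74725778, minus strand: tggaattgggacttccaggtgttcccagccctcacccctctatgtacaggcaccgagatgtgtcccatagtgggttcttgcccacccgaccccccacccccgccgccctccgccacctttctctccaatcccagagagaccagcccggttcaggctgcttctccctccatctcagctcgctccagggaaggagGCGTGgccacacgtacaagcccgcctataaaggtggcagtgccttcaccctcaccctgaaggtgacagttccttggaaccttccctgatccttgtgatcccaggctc
FUT3, chr19:5851400-5851699, minus strand: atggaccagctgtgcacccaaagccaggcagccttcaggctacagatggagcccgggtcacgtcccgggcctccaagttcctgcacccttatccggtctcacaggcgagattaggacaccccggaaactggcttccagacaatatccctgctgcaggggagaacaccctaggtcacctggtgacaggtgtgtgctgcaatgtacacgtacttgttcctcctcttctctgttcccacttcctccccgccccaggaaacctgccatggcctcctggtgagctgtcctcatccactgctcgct

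Stress-response genes were higher with RSV+Vem. Of 21 tested targets of ATF4, the transcription factor of amino acid shortage and endoplasmic reticulum stress, 14 were called higher (66.7%, beside 19.1% of all genes) and 2 lower (9.52%, beside 18.7%), with a median of 1.24. With spike-in scaling 10 were called higher, beside 334 of all 16080 genes. ATF3 rose from 11.7 and 6.76 CPM to 64.1 and 58.1 CPM (log2 fold change 2.72, SE 0.33, edgeR adjusted p = 1.58e-04), and the stress protein NUPR1 rose by 2.32. PHGDH and MTHFD2, enzymes of serine and one-carbon metabolism, rose by 1.24 and 1.69. The amino acid transporter genes SLC7A5 and SLC3A2, which encode the 2 chains of one exchanger, were lower, at -0.60 and -0.33. Neither was called under spike-in scaling. SLC3A2 was not called without Vem replicate 2 (-0.33, adjusted p = 0.0566) or without RSV+Vem replicate 2 (-0.28, adjusted p = 0.0940). RSV alone raised 13 of the 21 and lowered 1, beside 20.5% and 20.2% of all genes, with a list median of 0.68. The interaction was called for 2 higher (9.52%) and 1 lower (4.76%), below the shares of all genes.

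Other stress and death genes moved in the same direction in part. Of 27 tested p53 targets, 14 were called higher (51.9%, beside 19.1% of all genes) and 0 lower, with a median of 0.47. Those higher included BTG2 (2.02), an antiproliferative gene, and SESN2 (1.82), which is also on the ATF4 list. PMAIP1, the BH3-only protein NOXA, was at 2.23 and 1.84 CPM with Vem and at 14.7 and 21.0 CPM with RSV+Vem (log2 fold change 3.10, SE 0.24, edgeR adjusted p = 3.14e-08). RSV alone raised it by 1.68, and the interaction was 1.42 (SE 0.31, edgeR adjusted p = 0.003; 0.944 under spike-in scaling). BCL2A1, a survival protein of melanocytes, fell by 1.19 and BCL2L1, another survival protein, by 0.67, while BMF, a pro-apoptotic member, rose by 0.82. Of these 4 members of the BCL2 family, PMAIP1 alone was still called under spike-in scaling. Over the 16 tested members of that family, 5 were called higher (31.2%) and 4 lower (25%), beside 19.1% and 18.7% of all genes. Among antioxidant genes regulated by NRF2, 9 of 17 were higher (52.9%) and 2 lower (11.8%). HMOX1 (1.06) and GCLM (0.98) were among those higher. Their interactions with Vem had edgeR adjusted p = 0.903 and 0.999, and neither gene was called under spike-in scaling.

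Of 20 tested immediate early genes, 9 were called higher (45%, beside 19.1% of all genes) and 0 lower. The list median was 1.08, with 1.79 in the 14 shorter genes and 0.325 in the 6 longer ones. IER5, a gene induced by serum and heat, rose by 2.05 (SE 0.16, edgeR adjusted p = 9.54e-08). Replication-dependent histone genes, whose mRNAs usually lack the poly(A) tail that the library kit selects, had 29 of 88 members with enough counts. Of these, 20 were called higher (69%) and 0 lower, with a median of 1.51. Their summed level was 102 and 110 CPM with Vem and 246 and 186 CPM with RSV+Vem, against 28.29 and 29.98 CPM with vehicle. Several of these genes are near-identical copies, so their counts may be split between them.

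Dedifferentiation and invasion markers had a median of 1.76 in RSV+Vem relative to Vem, but several of them were rare. Relative to vehicle the list median was -1.54 with Vem and -0.001 with RSV+Vem, 2 values that share the vehicle libraries. With RSV+Vem 4 members were called higher than with vehicle and 4 lower. Of 13 tested, 8 were called higher (61.5%, beside 19.1% of all genes) and 1 lower (7.69%, beside 18.7%). With EGFR, which had 4 and 1 counts with RSV+Vem and 0 in both Vem libraries, set at its bound the median was 1.15. With spike-in scaling 5 of the 13 were called higher and 0 lower, beside 334 and 55 of all 16080 genes. POU3F2 (BRN2), a transcription factor of the invasive melanoma state, was at 4.03 and 4.07 CPM with Vem and 19.7 and 19.1 CPM with RSV+Vem (log2 fold change 2.26, SE 0.15, edgeR adjusted p = 9.00e-09). With vehicle POU3F2 was at 25.4 and 25.3 CPM. RSV alone did not detectably change it (-0.05, edgeR adjusted p = 0.790), and its interaction was 2.31 (SE 0.20, edgeR adjusted p = 6.87e-07; 0.14 under spike-in scaling). JUN, an AP-1 subunit, was more abundant and was called higher (1.77, edgeR adjusted p = 0.0327), a call it lost without any 1 of the 4 libraries compared (adjusted p from 0.0657 to 0.146). SNAI2, a repressor that is also expressed in melanocytes, was the member called lower (-0.57), and it was not called under spike-in scaling (adjusted p = 0.631). AXL and NRP1, kinase and co-receptor genes linked with resistance to Vem, had 1 and 4 counts with RSV+Vem and 2 and 1 with Vem, too few to compare.

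**Figure D3:**
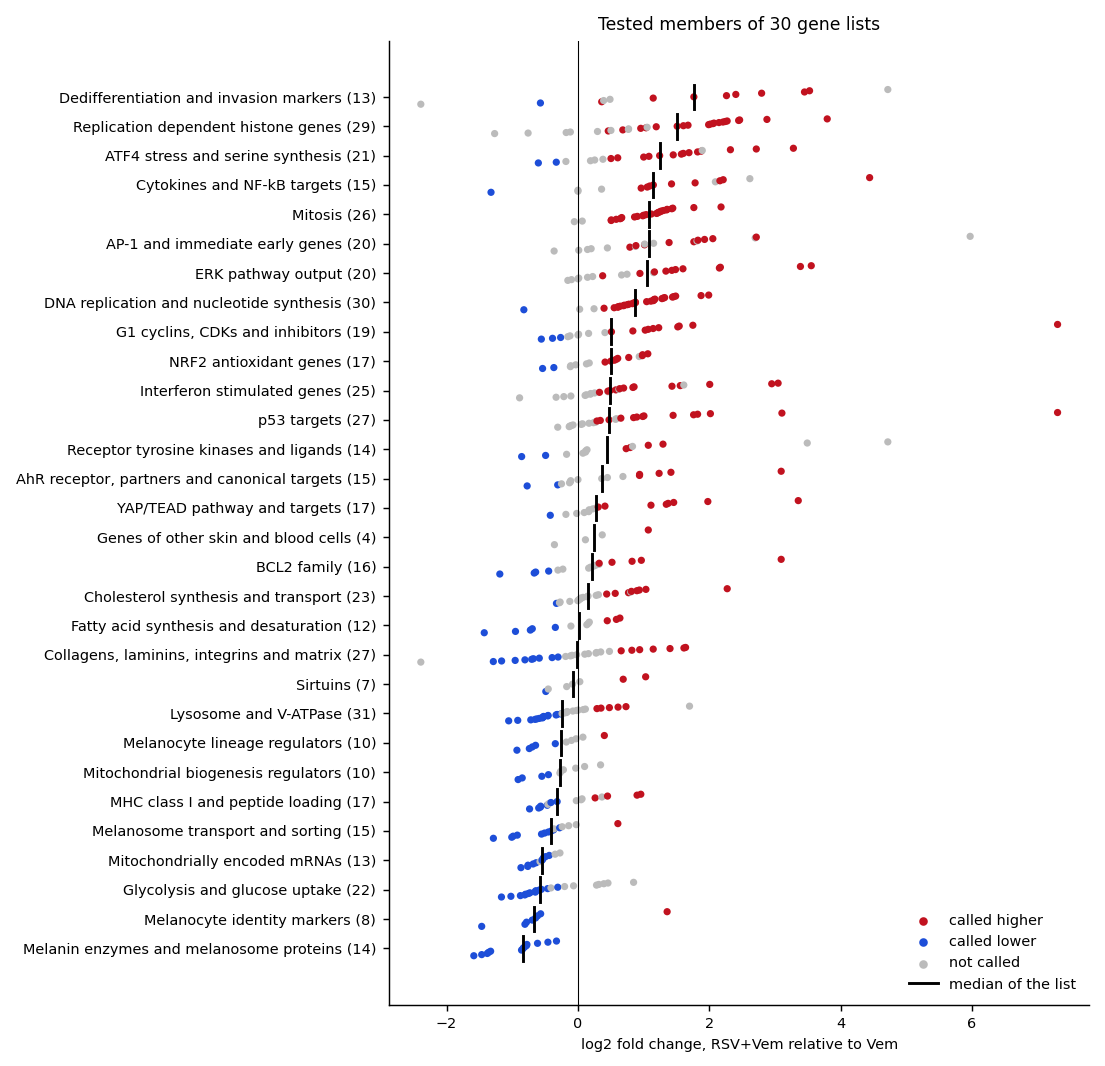
Log2 fold change in RSV+Vem relative to Vem of each tested member of 30 gene lists, with the number tested in brackets; red points were called higher, blue lower and grey not called, and black bars mark list medians. The melanin list at the bottom lies wholly below 0, and nearly all members of the mitosis and DNA replication lists lie above 0.

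Genes of glycolysis and those encoded in mitochondrial DNA were mostly lower. Of 22 tested genes of glycolysis and glucose uptake, 14 were called lower (63.6%, beside 18.7% of all genes) and 0 higher. The list median was -0.57. PFKM, the muscle form of phosphofructokinase, fell from 350 and 352 CPM to 159 and 154 CPM (log2 fold change -1.17, SE 0.09, edgeR adjusted p = 1.90e-08). GPI, the isomerase one step earlier, fell by 1.02 (SE 0.09, edgeR adjusted p = 7.50e-08). RSV alone lowered 15 of the 22, beside 20.2% of all genes, with a list median of -0.58. Of the 13 mRNAs encoded in mitochondrial DNA, 10 were called lower (76.9%) and 0 higher, with a median of -0.55. RSV alone raised 2 and lowered 0, beside 20.5% and 20.2% of all genes, with a list median of -0.04. PPARGC1A, a coactivator of mitochondrial genes, fell by 0.91 and its partner ESRRA by 0.85. Of 12 genes of fatty acid synthesis, 3 were called higher (25%) and 5 lower (41.7%), with a median of 0.01. Among them ELOVL6 (-1.43) and FASN (-0.95) were lower and FADS2 (0.64) and ME1 (0.59) higher. FADS2 was not called without Vem replicate 1 or RSV+Vem replicate 2 (adjusted p = 0.112 and 0.0763), and ME1 without either Vem replicate or RSV+Vem replicate 1 (adjusted p from 0.0795 to 0.211). In the cholesterol list, 8 of 23 genes were higher (34.8%) and 1 lower (4.35%), with a median of 0.15. Of 7 sirtuins, the deacetylases often linked with RSV, SIRT1 (1.03) and SIRT7 (0.69) were higher and SIRT2 (-0.49) was lower. These were 28.6% and 14.3% of the sirtuins, beside 19.1% and 18.7% of all genes. With spike-in scaling, which called only 55 of 16080 genes lower, edgeR called 0 of the 22 glycolysis genes and 0 of the 13 mitochondrially encoded mRNAs. Their medians were then -0.628 and -0.565, so the lack of calls says little about either list. PPARGC1A, ESRRA, FASN, FADS2, ME1 and the 3 sirtuins were not called under that scaling either.

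Lysosomal genes were more often lower than higher with RSV in the presence of Vem and more often higher without it. In RSV+Vem relative to Vem, 15 of 31 tested genes of the lysosome and its proton pump were called lower and 5 higher. These were 48.4% and 16.1%, beside 18.7% and 19.1% of all genes, and the list median was -0.24. RSV alone raised 18 and lowered 1, beside 20.5% and 20.2% of all genes, with a list median of 0.30. The interaction was called lower for 21 and higher for 0, beside 10.9% and 11.8% of all genes. Members called lower with Vem and higher without it numbered 5, beside 241 of all 16080 genes. The proteases CTSA and CTSL had log2 fold changes of -1.06 and -0.92. CTSL was at 422 and 455 CPM with Vem and at 235 and 229 CPM with RSV+Vem, and its interaction was -1.26 (SE 0.13, edgeR adjusted p = 2.69e-06). The sialidase NEU1 was higher with RSV both with Vem (0.73) and without it (1.26). The median was -0.12 in the 12 shorter genes and -0.29 in the 18 longer ones. With spike-in scaling edgeR called 0 of the 31 in either direction, for RSV+Vem against Vem and for the interaction. Of all 16080 genes that scaling called 55 lower for RSV+Vem against Vem and 0 lower for the interaction. The list medians were then -0.288 and -0.424.

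Immune genes divided between lists. Of 25 tested interferon-stimulated genes, 13 were called higher (52%, beside 19.1% of all genes) and 0 lower, with a median of 0.49. Those higher included the transcription factor gene IRF1 (2.95, SE 0.34, edgeR adjusted p = 2.53e-06) and USP18 (0.85). Of 17 tested genes of MHC class I antigen presentation, 4 were higher (23.5%) and 7 lower (41.2%, beside 18.7% of all genes). The list median was -0.32. HLA-B, a class I heavy chain, rose from 25.7 and 26.3 CPM to 52.8 and 47.9 CPM (log2 fold change 0.96, SE 0.12, edgeR adjusted p = 9.12e-06). RSV alone raised it by 1.07. The HLA genes share long stretches of sequence, so reads may be divided between them. Among 15 tested cytokines and NF-kB targets, 9 were higher (60%), including the NF-kB inhibitor NFKBIA (1.43), and 1 lower (6.67%). USP18, HLA-B and NFKBIA were not called under spike-in scaling.

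Signalling receptors, matrix genes and YAP/TEAD genes were each called in both directions, where 19.1% of all genes were higher and 18.7% lower. Of 14 receptor tyrosine kinases and ligands, 4 were higher (28.6%) and 2 lower (14.3%). HBEGF, a ligand of EGFR, rose by 1.30, and MET, the receptor of hepatocyte growth factor, fell by 0.86. Of 27 matrix and adhesion genes, 7 were higher (25.9%) and 9 lower (33.3%), with ITGA6 at 0.94 and ITGA9 at -1.29. Of 17 genes of the YAP/TEAD pathway, 8 were higher (47.1%) and 1 lower (5.88%), with NUAK2 at 1.37. None of the genes named in this paragraph was called under spike-in scaling. Of the 17 YAP/TEAD genes tested, that scaling called 1 higher and 0 lower. It called 0 of the receptor list and 0 of the matrix list in either direction.

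Across the genome the effect of RSV with Vem overlapped in part with its effect in the other backgrounds, and these comparisons share no library. Of the 3079 genes higher with RSV in the presence of Vem, 1380 were also higher with RSV alone, which is 44.8% of the former and 41.9% of the latter, beside 20.5% of all tested genes, and 211 (6.85%) were lower, beside 20.2%. Of the 3009 lower genes, 1371 were also lower with RSV alone, 45.6% of the former and 42.3% of the latter, and 241 (8.01%) were higher. Over the 16080 genes tested, which are no independent samples, effects with and without Vem had a Pearson r of 0.528 (Spearman rho 0.426) and those with Vem and with TCDD one of 0.491. The effects of RSV alone and with TCDD had an r of 0.795. RSV raised 1096 genes (6.82%) and lowered 1119 (6.96%) in all 3 backgrounds. It raised 131 genes with Vem that it lowered in both other backgrounds, and lowered 143 that it raised in both.

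**Figure D4:**
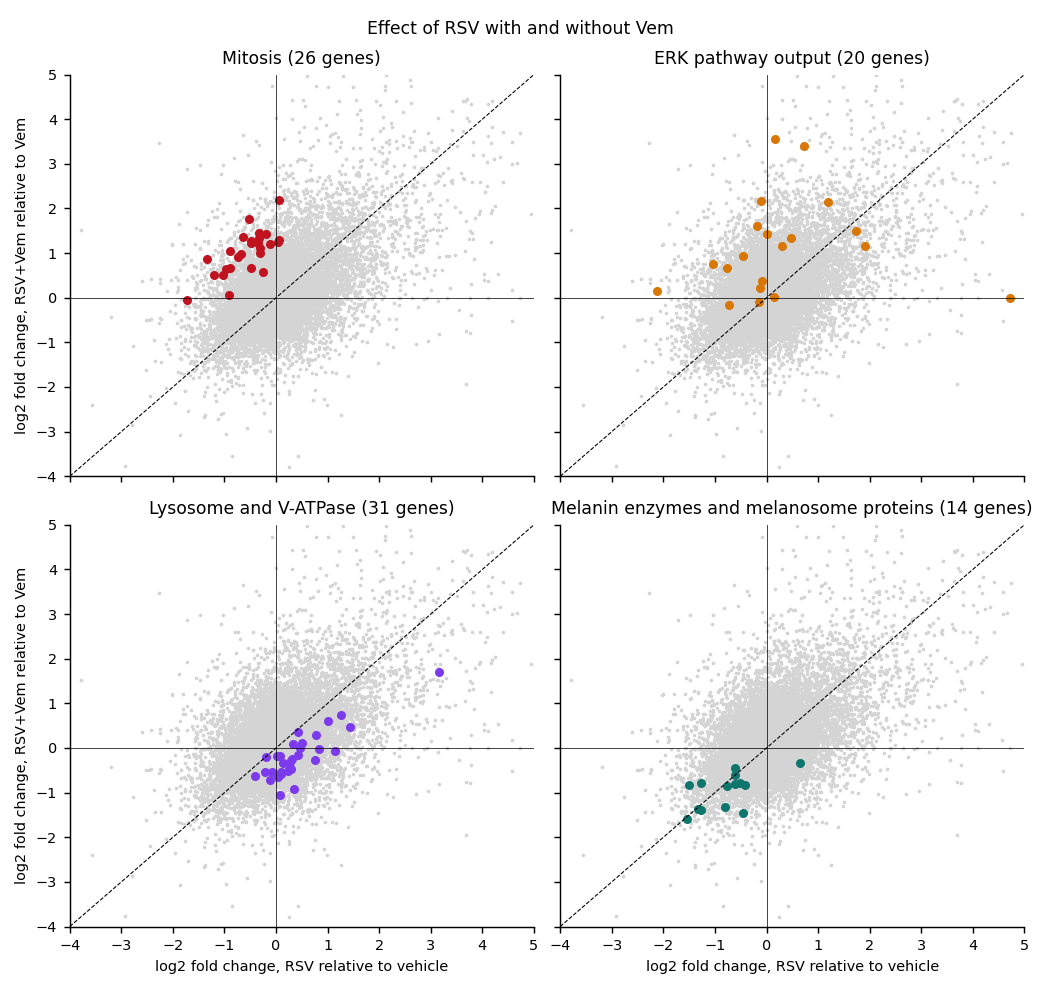
Log2 fold change of RSV+Vem relative to Vem (vertical) against RSV relative to vehicle (horizontal) for all tested genes (grey), with the members of 1 list coloured in each panel; the dashed line marks equal effects, and 59 genes, none of them a member of these lists, lie outside the axes. Mitosis genes lie above the line, lysosomal genes mostly below it, and melanin genes mostly at the lower left.

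The genes with the greatest difference between backgrounds included named regulators. HES1, a Notch target, was at 1.95 and 1.15 CPM with Vem and 9.84 and 9.22 CPM with RSV+Vem, while RSV alone lowered it by a log2 fold change of -0.79, an interaction of 3.403 (SE 0.35, edgeR adjusted p = 6.34e-06). RASGRP1, an activator of RAS, had an interaction of 2.83 (SE 0.38, edgeR adjusted p = 4.10e-05), and was at 0.765 and 0.538 CPM with Vem and 4.04 and 3.71 CPM with RSV+Vem. The receptor kinase TIE1 and the complement protease C1S had the lowest interactions, -3.23 and -2.96. RSV raised them without Vem, by 3.15 and 2.75, and with Vem they were not called, at -0.08 and -0.21. Relative to vehicle, Vem alone also raised TIE1 and C1S, by 3.02 and 2.22 (edgeR adjusted p = 7.5e-06 and 1.17e-05). With RSV+Vem they stood at 2.94 and 2.01 relative to vehicle, so both were above vehicle in each of these treated groups. SLC7A4, a transporter, fell by 0.99 with RSV in the presence of Vem and rose by 1.04 without it, and its fall was not called under spike-in scaling (adjusted p = 0.286). Under spike-in scaling the interactions of RASGRP1, TIE1 and C1S were not called (adjusted p = 0.105, 0.149 and 0.14).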

How the data were processed

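RNA of 501Mel cells was sequenced by the study as 12 stranded mRNA libraries, 2 in each of 6 groups. Per the labels and methods, the authors aligned read pairs of 75 bases to hg19 with STAR 2.4.0a and counted primary alignments by gene name and strand with featureCounts of Subread 1.5.0-p3. The deposited values are raw counts per gene symbol, with 92 ERCC spike-ins, and the annotation release is not given in the sources used here. Totals on genes ranged from 8378655 to 25076925 counts, and intervals cover counting error only.

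From these counts, genes were kept by filterByExpr (16080 of 56638), scaled by TMM and fitted with edgeR 4.0.16 (glmQLFit, robust dispersions, 1 term per group) in R 4.3.3, over all 12 libraries. Calls used a Benjamini-Hochberg adjusted p below 0.05, two-sided. With 2 libraries against 2, an exact permutation test cannot pass that threshold. The interaction contrasts compare the effect of RSV with Vem to its effect without Vem or with TCDD. On simulated counts for the main comparison, 191 of 200 genes changed by a log2 value of 1 were called, with 7 of the unchanged genes. The members and the 30 gene lists were chosen with earlier results of these data known.

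Genes named are the 12 largest called increases and decreases without overlap between groups and with 50 counts or more on average in the group where they were higher, the 2 largest per list and direction under the same count limit, genes the study discusses, and the 4 largest interactions per direction. A few genes that this rule names are not reported here. Others stand as examples of their list and were chosen after their values were seen. Alternatives were DESeq2 1.42.0, other scalings (RLE, spike-ins), other filters, a replicate block, the 4 libraries alone, a log2 threshold of 1, leaving out each library, and splitting lists by exonic length (GENCODE 44 lifted to GRCh37). Non-robust dispersions were added after seeing the data. Promoters are RefSeq sequences on GRCh38.p14.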

Additional observations from a re-analysis of the deposited data

Results flagged for a closer look

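The effect of RSV differed between cells with and without Vem for 3656 genes by the interaction test (edgeR adjusted p below 0.05). Among those with enough counts, the highest interactions were 3.403 for HES1, 3.39 for SPRY4, 2.83 for RASGRP1 and 2.78 for AC096559.1. The lowest were -3.23 for TIE1, -2.96 for C1S, -2.83 for KNDC1 and -2.82 for KRBA2. KNDC1 was not called without vehicle replicate 2, Vem replicate 1 or RSV replicate 1 (adjusted p from 0.066 to 0.216), and its value ranged from -4.36 without vehicle replicate 1 to -1.99 without vehicle replicate 2. The value for SPRY4 was 4.31 without Vem replicate 1 and that for KRBA2 -3.52 without vehicle replicate 2. With spike-in scaling HES1 and SPRY4 were still called and the other 6 were not (adjusted p from 0.105 to 0.449).

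The effect of RSV with Vem differed from its effect with TCDD for 3281 genes, a contrast that includes the unsettled TCDD dose of RSV+TCDD. The highest values were 6.16 for CTD-2207A17.1, 4.25 for RP11-1220K2.2, 4.11 for ICOS and 3.63 for EMILIN3, and the lowest were -3.41 for SLC7A4, -3.39 for SLAMF7, -3.25 for TIE1 and -3.02 for MYH7B. CTD-2207A17.1 had 44 counts with RSV+Vem and 0 with Vem, at least 14.5-fold higher with 3 counts over the Vem group as the floor. ICOS had 18 counts against 3 (ratio 5.93, 95% interval 1.73 to 31.5) and EMILIN3 32 against 2 (15.8, 4.04 to 136), both intervals for counting error only. SLAMF7 was 1.62 and not called without Vem replicate 1, and it also lost its call without RSV+Vem replicate 2, without either TCDD library or either RSV+TCDD library, and with spike-in scaling (adjusted p from 0.052 to 0.345). CTD-2207A17.1 was not called without either Vem library (adjusted p = 0.0727 and 0.0616). EMILIN3 was not called without Vem replicate 1 (2.62, adjusted p = 0.0506) or RSV+Vem replicate 1 (2.89, adjusted p = 0.0685) and was 7.16 without Vem replicate 2, and RP11-1220K2.2 was 5.00 without Vem replicate 1. TIE1 and MYH7B were not called with spike-in scaling (adjusted p = 0.121 and 0.0639). Leaving out TCDD replicate 1 gave -2.42 for TIE1, and leaving out TCDD replicate 2 gave -4.26. With 2 libraries per group, single libraries that stand apart were not tested.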

How the results depend on the processing

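The number of calls depended most on the scaling and on the threshold. With spike-in scaling edgeR called 389 genes in RSV+Vem against Vem (334 higher, 55 lower), 8 for the interaction with Vem (8 higher, 0 lower, where TMM scaling gave 1751 lower) and 212 for Vem against TCDD (211 higher, 1 lower). That scaling moved the median of all genes from 0.03 to -0.02, from 0.02 to 0.15 and from 0.03 to 0.68 in these 3 contrasts. In RSV+Vem against Vem, genes could lose the call at similar values, such as MYO5A (-1.29 and -1.35) and AHR (1.42 and 1.33). Spike-in shares differed between replicates, at 0.0389% and 0.0903% with RSV+Vem and 0.0630% and 0.0936% with RSV+TCDD. The part of this spread in the lost calls was not tested. A log2 threshold of 1 left 372 (316 higher, 56 lower), 120 (89 and 31) and 138 (109 and 29). Leaving out 1 library gave 4163 to 4649 calls for RSV+Vem against Vem (2060 to 2376 higher, 2103 to 2312 lower), 2445 to 3803 for the interaction with Vem (1211 to 2009 higher, 1197 to 1819 lower) and 1971 to 3264 for Vem against TCDD (1030 to 1718 higher, 941 to 1546 lower). The fewest came without Vem replicate 1 for the higher interaction calls (1211; 1257 without RSV+Vem replicate 2) and without TCDD replicate 1 for Vem against TCDD. DESeq2 called 5347 genes (2532 higher, 2815 lower), and non-robust dispersions, chosen after seeing the data, 6091. With a replicate block, edgeR called 6172 (3116 higher, 3056 lower), 3805 and 3402; the labels share numbers only, and same-numbered RSV+Vem and Vem libraries did not deviate together (r = 0.0154). Over all 15 pairs of groups r ran from -0.121 to 0.155, and the pairs among RSV, RSV+Vem and RSV+TCDD had 0.149, 0.155 and 0.117.

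Of the results of named genes under the alternatives, 1586 kept direction and call, 136 lost the call and 1 reversed: SLAMF7 for Vem against TCDD, 1.62 without Vem replicate 1 (adjusted p = 0.698), where leaving out 1 library gave values from -4.31 to 1.62. Of the list medians 346 stayed within the spread between replicates, 74 moved further and 3 reversed, all by the split on length: -0.058 for longer AhR genes, -0.23 for shorter BCL2 family genes (0.21 overall) and 0.055 for shorter MHC class I genes (-0.32 overall). The cause was not tested. Depth limited genes with few counts, and RSV+Vem replicate 2 was the shallowest library.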
